A study of Rattus norvegicus with 6 samples.

Results

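Mir3065 and Mir135b, the genes of 2 microRNAs (miRNAs), were followed in small RNA libraries of rat INS-1 insulinoma cells together with the genes they lie in or resemble. Mir3065 lies on the opposite strand of Aatk, a gene for a brain-rich kinase (apoptosis-associated tyrosine kinase). Mir135b lies within the span of Lemd1, which encodes a LEM-domain protein, and has the paralog Mir135a on another chromosome. These 5 genes, of 32883 with a row in the tables, were found by gene symbol, and each had a row in both deposited tables. Mir3065 and Mir135b were chosen by their difference between the same 2 groups of lines, so their group difference is described here with no test. Aatk and Lemd1 were taken for their position and Mir135a for its sequence.

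The libraries came from 6 clonal lines of INS-1(832/13)::mCherry cells, a model of the β-cell with a human insulin gene and a fluorescent insulin reporter among its transgenes. Cells were cultured at 7.5 mM glucose without treatment, and all 6 lines share a deletion of the imprinted Prader-Willi syndrome (PWS) domain on its silent maternal copy. The 3 control lines (5-9, 2 and 16) hold only that deletion, and the 3 PWS lines (3, 19-1 and 19-4) also lack the active paternal copy. Every line is 1 clone with 1 library, lines 2, 16 and all PWS lines were derived from line 5-9, and lines 19-1 and 19-4 are sister subclones. P-values therefore measure the spread between these clones. In bulk libraries, fewer cells with an RNA and less of it per cell cannot be told apart.

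A miRNA gene is transcribed as a longer RNA whose hairpin is cut out by Drosha with Dgcr8, exported by Xpo5 and cut again by Dicer1. One arm of the resulting duplex is loaded into an Argonaute protein and pairs with target mRNAs, mainly through its seed at bases 2 to 8. Many miRNA genes lie inside other genes and can share their transcript when both are on the same strand. miR-135 is known for targets in the Wnt pathway, such as Apc, and in serotonin neurons, and miR-338 is known for its role in oligodendrocytes.

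The arms of the 3 member miRNA genes are shown first because seed and strand decide what each row can hold. All 3 were in the RefSeq miRNA table for assembly GRCr8. The deposited files name Rnor_6.0, so these positions belong to the sequences alone and were not carried over to the tables. Mature arms are written 5′ to 3′ with the seed in capitals.
miR-3065-5p: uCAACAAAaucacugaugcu
miR-3065-3p: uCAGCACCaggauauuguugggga
miR-338-3p: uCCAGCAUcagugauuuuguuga
miR-338-5p: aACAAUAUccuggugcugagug
miR-135b-5p: uAUGGCUUuucauuccuauguga
miR-135a-5p: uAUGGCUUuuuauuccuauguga
miR-135b-3p: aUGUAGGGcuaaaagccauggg
miR-135a-3p: uGUAGGGAuggaagccaugaaa

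The miR-135 5p arms share the seed AUGGCUU, which no other mature rat miRNA of that table has. They are identical at 22 of 23 bases and differ by U11C, with miR-135a-5p as the reference and positions counted from 1 at the 5′ end. Their 3p arms have different seeds and share an exact stretch of only 8 bases. The seed of miR-3065-5p, CAACAAA, was also found in miR-7a-1-3p, and that of miR-3065-3p in no other rat miRNA listed.

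Mir3065 overlaps a further miRNA gene, Mir338, which lies on the opposite strand. The hairpins are shown with their mature arms in capitals, Mir3065 from chr10:105796325-105796427 (GRCr8, plus strand) and Mir338 from chr10:105796342-105796407 (GRCr8, minus strand).
Mir3065 hairpin: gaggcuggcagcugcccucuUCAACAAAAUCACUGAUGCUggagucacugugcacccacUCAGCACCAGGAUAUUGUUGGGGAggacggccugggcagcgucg
Mir338 hairpin: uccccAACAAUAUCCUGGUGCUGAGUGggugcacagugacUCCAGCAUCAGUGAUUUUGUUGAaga

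All 66 bases of the Mir338 hairpin are the reverse complement of bases 18 to 83 of the Mir3065 hairpin. The 20 bases of miR-3065-5p are fully complementary to miR-338-3p, and the first 19 bases of miR-3065-3p are complementary to miR-338-5p. Reads of the 2 genes can therefore not be told apart without the strand of a read. In the reference Aatk and Mir338 are on the minus strand, so Mir338 is in the sense of Aatk and Mir3065 is antisense to it. Mir338 was not analysed here, as no row of either table carries its symbol.

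The Mir135b hairpin spans chr13:46191018-46191114 (GRCr8, plus strand) and the Mir135a hairpin chr7:28499166-28499265 (GRCr8, minus strand). They are shown for the loop and 3p arm, where they differ more than in the 5p arm.
Mir135b hairpin: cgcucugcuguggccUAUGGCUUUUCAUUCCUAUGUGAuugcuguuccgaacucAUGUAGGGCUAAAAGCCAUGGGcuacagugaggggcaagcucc
Mir135a hairpin: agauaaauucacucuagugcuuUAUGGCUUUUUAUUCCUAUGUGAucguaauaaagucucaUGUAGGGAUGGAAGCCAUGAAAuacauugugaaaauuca

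Mir135b lies inside the spans of Lemd1 and of Blacat1, both on its own strand, and Blacat1 was not analysed here. The Lemd1 start site listed in the RefSeq promoter table is downstream of Mir135b, so a transcript from that start does not contain the hairpin. Mir135a lies in a long noncoding RNA gene on its own strand, LOC102548260, also not analysed here. The reference table gives gene spans, so exon or intron is not stated for these positions.

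Values below are normalized reads, the authors' gene counts divided by a size factor per library, with the whole reads recovered from them. Reads counted in genes summed to 7373691 to 16480475 a library, with a read that fits several genes counted in each. Snord116, a snoRNA family inside the deleted domain, checked the labels: its 36 rows summed to 5557 to 8804 normalized reads in control lines and to 1.78 to 3.96 in PWS lines. The β-cell marker list, led by Mir375 and the Mir7a genes, summed to 1901565 to 3329436 in control lines and 2048297 to 2842624 in PWS lines. These 3 miRNA rows set the sum. Of the 8 list genes tested, 7 had a negative log2 difference, limma, edgeR and DESeq2 each called 0, and 1 had an unadjusted p under 0.05, as had 256 of 4292 over all genes. Fragments of Ins2 were at 21.1 ± 9.91 and 7.45 ± 8.08 normalized reads in control and PWS lines and those of Ins1 at 194 ± 83.2 and 125 ± 51.6 (SD, n = 3 each), with overlapping groups and adjusted p of 0.727 and 0.86 by limma. Over all genes, 55 of 4292 tested (1.28%) were called by limma (adjusted p below 0.1), and each had its lower level in the PWS lines. Control and PWS lines did not overlap for 270 tested genes with lower PWS values (6.29%) and for 209 with higher ones (4.87%). The paper places all but a few of its own significant small RNAs in the deleted domain. Rows of that domain were not set apart in the counts over all genes given here. The 1.28% and 6.29%, also where quoted below, are therefore not the shares among genes outside the domain, which were not counted.

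Mir3065 (ENSRNOG00000035465) was at 654, 633 and 668 normalized reads in control lines 5-9, 2 and 16, from 664, 484 and 866 reads. It was at 377, 311 and 266 in PWS lines 3, 19-1 and 19-4, from 635, 296 and 202 reads. The groups did not overlap, the lowest control line being well above the highest PWS line. The control mean was 652 ± 17.9 and the PWS mean 318 ± 55.8 (SD, n = 3 each), so that PWS lines held 48.8% of the control level, a difference of -1.05 on the log2(normalized reads + 1) scale.

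The control lines were as close to each other as counting allows: their coefficient of variation for Mir3065 was 2.74%, against 3.97% from read sampling alone. The PWS lines varied more, with 17.5% against 5.75% from sampling. Line 3 retained 57.9% of the control mean, line 19-1 47.7% and line 19-4 40.9%. The exact 95% counting intervals of lines 3 (348 to 408) and 19-4 (231 to 306) did not overlap, while that of line 19-1 (277 to 348) met both. Such intervals cover counting error only.

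**Figure D1:**
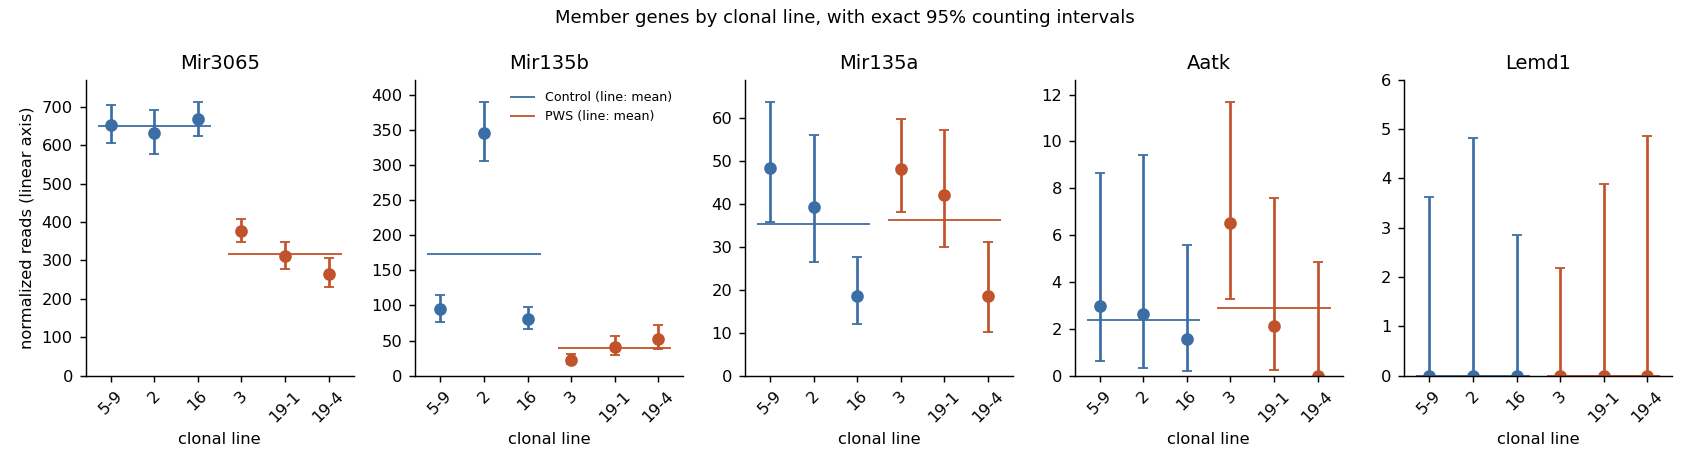
Normalized reads of the 5 member genes (linear axis from 0, one scale per panel) in each clonal line, control lines in blue and PWS lines in orange. Points are single libraries, bars exact 95% counting intervals and horizontal lines group means. For Mir3065 the control lines sit between 633 and 668 and the PWS lines between 266 and 377, control line 2 stands alone for Mir135b at 346, and Lemd1 is at 0 throughout.

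Mir135b (ENSRNOG00000035621) was at 94.6, 346 and 81 normalized reads in control lines 5-9, 2 and 16, from 96, 265 and 105 reads. It was at 22.6, 41 and 52.7 in PWS lines 3, 19-1 and 19-4, from 38, 39 and 40 reads. The groups did not overlap, but the counting intervals of control line 16 (66.3 to 98.1) and PWS line 19-4 (37.7 to 71.8) did. The control mean was 174 ± 149 and the PWS mean 38.8 ± 15.2 (SD, n = 3 each), a log2 difference of -1.89.

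Control line 2 set most of the control mean. Its level was 3.95 times the mean of the other 2 control lines (87.8), with a counting interval of 306 to 391. Without line 2 the log2 difference was -1.24 in place of -1.89. Line 2 was not generally high: of 1087 genes averaging 20 normalized reads or more, 12 (1.1%) were over 2-fold above the other control lines in it and 119 (10.9%) over 2-fold below, with Mir135b among the former. PWS line 3, with the lowest level, had 13% of the control mean, line 19-1 23.5% and line 19-4 30.3%.

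Both member miRNAs chosen on this contrast, 2 of the 5 members, had non-overlapping groups, against the 6.29% of all tested genes given above, a count that their choice fixes. The 2 genes were not at their lowest in the same line: Mir3065 was lowest in line 19-4 and Mir135b in line 3. Their correlation over the 6 libraries was r = 0.657, and r = -0.590 once the group means were removed, as a description over libraries that share their depth and scaling.

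Mir135a (ENSRNOG00000035529), the paralog with the same seed, did not differ between the groups beyond its spread. It was at 48.3, 39.2 and 18.5 normalized reads in control lines 5-9, 2 and 16, from 49, 30 and 24 reads. In PWS lines 3, 19-1 and 19-4 it was at 48.1, 42 and 18.5, from 81, 40 and 14 reads. The ranges of the 2 groups nearly coincided. The means were 35.3 ± 15.2 and 36.2 ± 15.7 (SD, n = 3 each), and the log2 difference of 0.03 ± 0.43 (SE) had an adjusted p of 0.989 by limma over the 4292 genes tested. With 14 to 81 reads a line, the ratio of PWS to control from pooled reads was 1.19, with a counting interval of 0.912 to 1.55.

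A further row, Mir135a-1 (ENSRNOG00000046630), is no member and is absent from the sequence table. It was at 37.4, 41.8 and 31.6 normalized reads in control lines 5-9, 2 and 16 and at 58.2, 63 and 29 in PWS lines 3, 19-1 and 19-4. The groups overlapped here too, while the pooled ratio of PWS to control was 1.47, with a counting interval of 1.15 to 1.88 that leaves out the spread between lines. Summed with Mir135a it gave 50.2 to 85.7 in control lines and 47.5 to 106 in PWS lines.

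The balance between the paralogs was compared per hairpin length, 97 bases for Mir135b and 100 for Mir135a. In control lines 5-9, 2 and 16 the level of Mir135b was 2.02, 9.11 and 4.51 times that of Mir135a. In PWS lines 3, 19-1 and 19-4 the ratio was 0.484, 1.01 and 2.95. The ratio in PWS line 19-4 was above that in control line 5-9, so the groups overlapped on this measure. Mir135b was the more abundant paralog in all 3 control lines and the less abundant one in PWS line 3. In line 19-1, with 39 reads of Mir135b and 40 of Mir135a, the paralogs did not differ beyond counting error. The balance shifts where Mir135a-1 is counted too. In normalized reads not set per length, Mir135b at 94.6, 346 and 81 then stood beside 85.7, 81.1 and 50.2 for both Mir135a rows in control lines 5-9, 2 and 16. In PWS lines 3, 19-1 and 19-4 it stood at 22.6, 41 and 52.7 beside 106, 105 and 47.5, so Mir135b was below the summed rows in lines 3 and 19-1. The arm bases that set the rows apart are those of U11C and of the 3p arm, and the deposited tables do not say which arm a read came from.

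**Figure D2:**
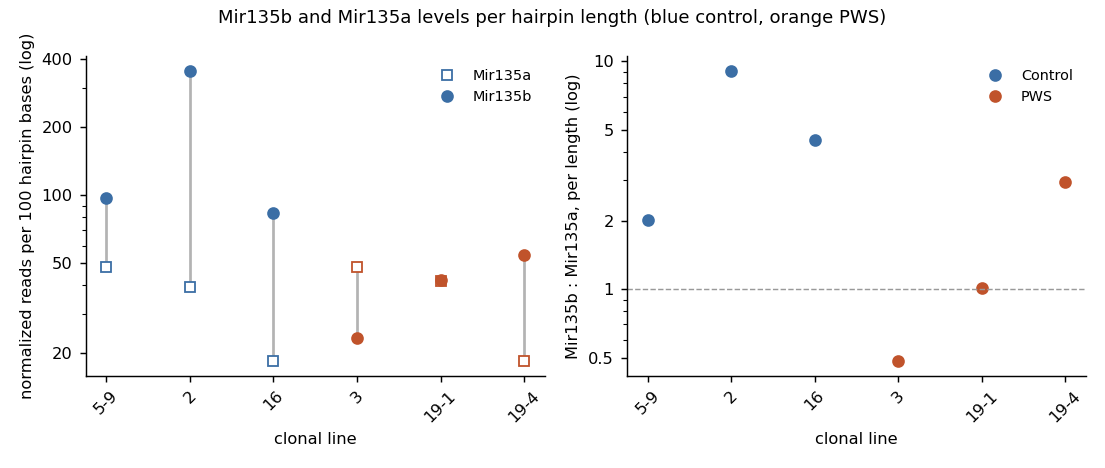
Left, normalized reads per 100 hairpin bases (log axis) of Mir135b (filled circles) and Mir135a (open squares) in each clonal line, joined by a grey line. Right, their ratio (log axis) in control lines (blue) and PWS lines (orange), with equality dashed. The ratio runs from 2.02 to 9.11 in control lines and from 0.484 to 2.95 in PWS lines.

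Aatk (ENSRNOG00000004392) gave few fragment reads. Control lines 5-9, 2 and 16 had 3, 2 and 2 reads, or 2.95, 2.61 and 1.54 normalized reads. PWS lines 3, 19-1 and 19-4 had 11, 2 and 0 reads, or 6.53, 2.1 and 0. Most PWS reads came from line 3, and the groups overlapped.

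Aatk averaged 2.37 ± 0.737 normalized reads over the control and 2.88 ± 3.34 over the PWS lines (SD, n = 3 each), below the filter of a mean of 5. The PWS mean was the higher one, while the log2 difference, which weighs the line without a read more, was -0.21. In the fit without a filter, over 17119 genes, that difference had an adjusted p of 0.962 by limma. The ratio from pooled reads was 1.68, with a counting interval of 0.624 to 4.98. Line 3 held 11 of the 13 PWS reads, and without it the pooled ratio was 0.514 and the log2 difference -0.91, so the direction of the pooled ratio rests on that line. The log2 difference was negative with and without line 3 and turned to 0.54 without line 19-4, which had no read.

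Lemd1 (ENSRNOG00000051244) had 0 reads in all 6 libraries. A limit of 3 reads corresponds to 2.95, 3.92 and 2.31 normalized reads in control lines 5-9, 2 and 16 and to 1.78, 3.15 and 3.96 in PWS lines 3, 19-1 and 19-4, and the two-sided exact 95% intervals reach somewhat higher, to between 2.19 and 4.86. It was not detectable at this depth. No ratio between Mir135b and Lemd1 could be formed.

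Host genes were generally sparse in these libraries, which were sized for short RNAs. In the reference, 107 pairs of a miRNA gene inside a protein-coding gene on the same strand had both rows, and 11 of the 94 hosts had no read, as Lemd1 did. The median host held 3.82 normalized reads. limma called 0 of the 41 same-strand hosts tested, 3 of which had an unadjusted p under 0.05, against 1.28% called and 256 of 4292 under that p over all genes, and edgeR and DESeq2 each called 0. At least 9 of the 41 held mostly reads also counted in another row, so their values are not those of the host alone.

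The 5 pairs with the most abundant miRNAs were Mir16 in Smc4, Mirlet7f2 in Huwe1, Mir25 and Mir93 in Mcm7, and Mir101-2 in Rcl1. Their miRNA log2 differences were between -0.24 and 0.15. Smc4, a condensin subunit, had 20 reads over all libraries, and Mcm7, a subunit of the replicative helicase, had 70. In these 5 pairs host reads were few beside an abundant miRNA, which was not so in all pairs.

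In 36 pairs both genes passed the filter. In 9 of these the host lost over 0.5 of its reads in the table that leaves out reads fitting several genes, that is, reads also counted in another row. Ctdsp1, the host of Mir26b, had 172967 reads in all, of which 9 remained, and Chpf2, the host of Mir671, had 37521, of which 48 remained. Across the other 27 pairs, some of which share a host, the log2 differences of miRNA and host had a correlation of r = 0.060. Aatk and Lemd1 had the same reads in both tables. On the opposite strand, as for Mir3065 and Aatk, there were 29 pairs with both rows. The median host of the opposite-strand pairs held 2.51 normalized reads, close to the mean of 2.62 for Aatk.

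**Figure D3:**
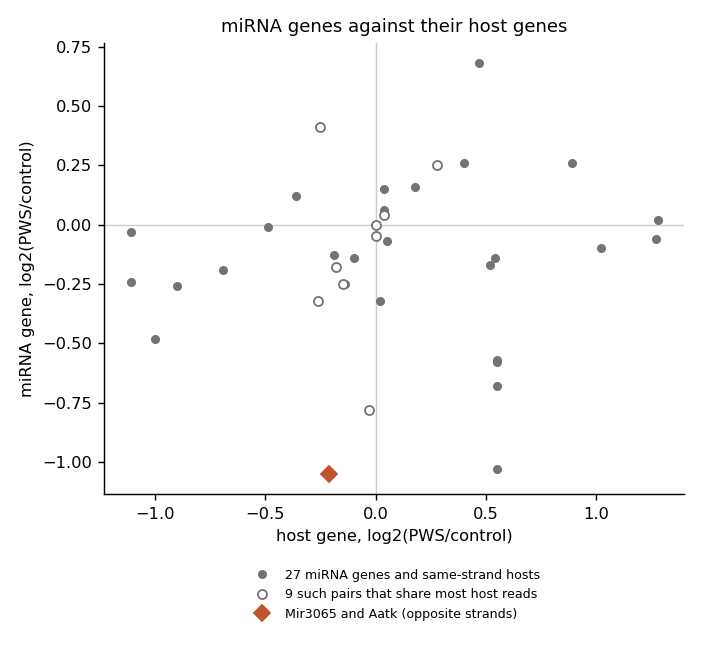
Log2 difference between PWS and control lines of miRNA genes (vertical axis) against that of the protein-coding gene each lies in (horizontal axis), for the 36 same-strand pairs in which both passed the filter, filled for 27 and open for the 9 in which most host reads are shared with other genes. Mir3065 and Aatk, on opposite strands and with Aatk below the filter, are the orange diamond at -1.05 and -0.21.

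Because Mir3065 and Mir338 are complementary, the rows of other overlapping miRNA genes were read for the same layout. The reference held 37 pairs of miRNA genes that overlap on opposite strands. In 36 of them exactly 1 gene had a row, as for Mir3065, and in 1 neither had. Of these 36 rows, 20 were at 0 in every library.

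In 3 pairs the mature arm of the gene without a row is also made by another gene that has one, so the arm was looked up there. Mir3596a, opposite Mirlet7a-2, was at 0 in every library while Mirlet7a1, with the same arm, averaged 150510 normalized reads. Mir3565, opposite Mir218-1, was at 0 while Mir218-2 averaged 1757. Mir3074, opposite Mir24-1, was at 124 to 193 while Mir24-2 averaged 9765. The level of the 3 partners themselves was not measured. For Mir3065, how many reads came from Mir338 was not tested, and the strand setting of the counting is not given in the sources used here.

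The miRNA genes most like Mir3065 over the 6 libraries, among 174 others that averaged 100 or more normalized reads, were Mir138-1 (r = 0.938), Mir190 (r = 0.934), Mir190a-2 (r = 0.927), Mir346 (r = 0.908) and Mir32 (r = 0.888). After the group means were removed Mir138-1 (r = 0.863) ranked 8 of the 174, Mir32 (r = 0.755) ranked 18, Mir346 (r = 0.551) 63, Mir190a-2 (r = 0.345) 102 and Mir190 (r = 0.302) 107. Before that removal the median over all 174 was r = 0.463. These correlations describe 6 libraries with shared scaling, and likeness to a gene chosen for its group difference favours genes with such a difference.

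Mir138-1, which makes the neural miRNA miR-138, was at 256, 292 and 239 normalized reads in control lines 5-9, 2 and 16 and at 208, 146 and 123 in PWS lines 3, 19-1 and 19-4. Its order over the PWS lines was that of Mir3065, with line 3 highest and line 19-4 lowest. Mir346 showed the same order, at 295, 263 and 228. Their log2 differences, -0.75 for Mir138-1 and -0.60 for Mir346, were smaller in size than the -1.05 of Mir3065.

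For Mir135b the most similar miRNA genes were Mir365b (r = 0.843), Mir378b (r = 0.831), Mir27b (r = 0.824), Mir187 (r = 0.811) and Mir190 (r = 0.807), with a median of r = 0.148 over all 174. After removal of the group means Mir187 (r = 0.856) ranked 5 of the 174, Mir27b (r = 0.672) 13, Mir365b (r = 0.517) 22, Mir378b (r = 0.453) 26 and Mir190 (r = 0.330) 31. Mir187 was at 1271, 2003 and 1039 normalized reads in control lines 5-9, 2 and 16 and at 1134, 1216 and 1111 in PWS lines 3, 19-1 and 19-4. It was, like Mir135b, highest in control line 2, but its groups overlapped.

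**Figure D4:**
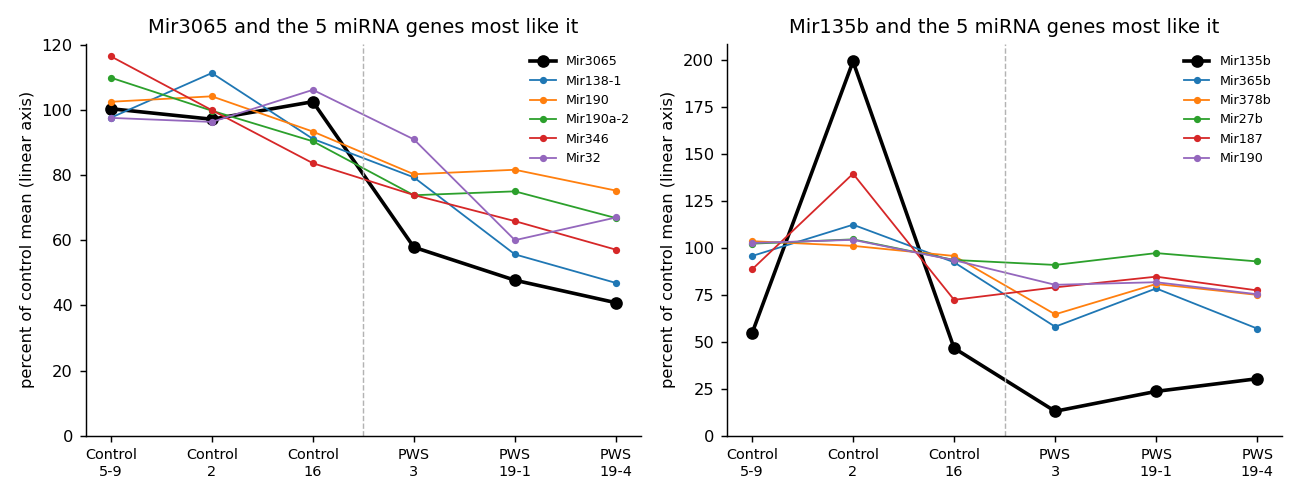
Level in each clonal line as percent of the control mean (linear axis from 0) for Mir3065 (left) and Mir135b (right), both in black, and the 5 miRNA genes with the highest correlation to each. Mir3065 lies at 40.9% to 57.9% in PWS lines, below all 5 of its companions, and the peak of Mir135b in control line 2 is followed in part by Mir187 and less by Mir365b.

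Genes next to the members were read in the order of the reference, 10 with a row on either side of Aatk and of Lemd1. Leaving out the member miRNAs, 16 of 19 neighbours of Aatk and 17 of 19 neighbours of Lemd1 had at least 1 read, and 4 around each passed the filter. Of these 8 genes 0 were called by limma, 0 had an unadjusted p under 0.05 and 0 were called by edgeR or DESeq2, against 1.28% called and 256 of 4292 under that p over all genes. Non-overlapping groups were found for 0 of the 8, against 6.29% of all tested genes with lower and 4.87% with higher PWS values.

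The neighbours with the highest mean on either side of Aatk were Gaa, the lysosomal acid alpha-glucosidase, and Actg1, a cytoplasmic actin. Gaa was at 4.24 ± 4.44 normalized reads in control and 7.84 ± 2.65 in PWS lines (SD, n = 3 each, limma adjusted p = 0.86). Actg1 was at 22.9 ± 6.85 and 20.8 ± 8.03 (adjusted p = 0.956). Neither differed beyond its spread.

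Around Lemd1 they were Elk4, an ETS-family transcription factor, at 11.5 ± 4.01 in control and 14.7 ± 3.4 in PWS lines (SD, n = 3 each, limma adjusted p = 0.898), and Klhdc8a, a kelch-domain gene, at 15.4 ± 1.6 and 24.3 ± 8.14 (adjusted p = 0.86). Klhdc8a, the next gene beyond Mir135b, had a higher PWS mean, with overlapping groups. The nearest miRNA neighbour of Mir3065 to pass the filter, Mir3594, was at 9.84 ± 6.27 and 17.1 ± 6.04 (adjusted p = 0.848), also with overlapping groups.

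**Figure D5:**
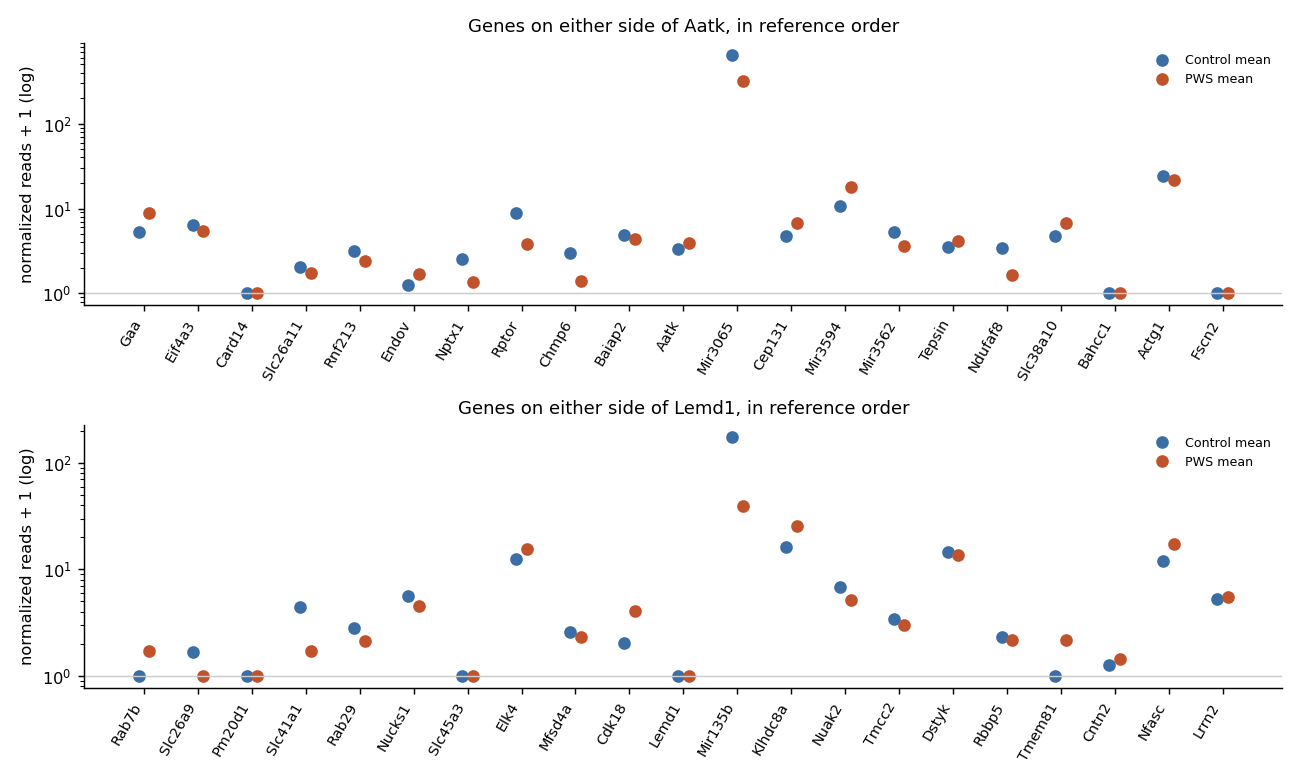
Mean normalized reads plus 1 (log axis) in control lines (blue) and PWS lines (orange) for the 10 genes with a row on either side of Aatk (top) and Lemd1 (bottom), in reference order and not to distance. Mir3065 and Mir135b stand above every neighbour in both groups, and genes on the grey line have no reads.

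The enzymes that make miRNAs were read through their mRNA fragments, which need not follow the mRNA. Of 20 genes on this list 19 had a row and 9 passed the filter. limma, edgeR and DESeq2 each called 0 of them and 0 had an unadjusted p under 0.05, against 1.28% called by limma and 256 of 4292 under that p over all genes. Their median log2 difference was 0.12, against 0.0048 over all genes tested. The row of Dgcr8, the partner of Drosha, was at 565 ± 96 normalized reads in control and 584 ± 137 in PWS lines (SD, n = 3 each), but it holds the reads of Mir1306, which lies inside it and was at 558 ± 99.5 and 577 ± 138. Only 31 of the 3583 Dgcr8 reads remained in the table that leaves out reads fitting several genes. Dicer1 was at 16.9 ± 3.9 and 12.1 ± 2.75 (limma adjusted p = 0.887). Drosha, with 34 reads in all, did not pass the filter.

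Of 10 genes known from the literature as miR-135 targets, all had a row, 2 had no read and 3 passed the filter. 0 of the 3 were called by limma, edgeR or DESeq2, and 0 had an unadjusted p under 0.05, against the same 1.28% and 256 of 4292 over all genes. Smad5, a BMP signal transducer, was at 8.31 ± 5.3 normalized reads in control and 5.93 ± 0.67 in PWS lines (SD, n = 3 each, limma adjusted p = 0.946). Irs2, an insulin receptor substrate, was at 45.3 ± 6.95 and 44.4 ± 15.2 (adjusted p = 0.982), and the SNARE protein gene Vamp2 at 6.38 ± 1.29 and 5.16 ± 2.19 (adjusted p = 0.942). Their median log2 difference was -0.29, against 0.0048 over all genes tested. Target mRNA levels cannot be judged from so few fragments of short RNA libraries.

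Markers of oligodendrocytes, where miR-338 has a known role, and of other cell types had few reads apart from Mir219a1, Mir142 and Mir126a. Groups overlapped for every such marker with a row. The oligodendrocyte list summed to 326 to 552 normalized reads in control lines and 303 to 428 in PWS lines, nearly all of it Mir219a1 (398 ± 127 and 358 ± 59.9, SD, n = 3 each). Mog, which defines that cell type, had 1 read over all libraries, and Mbp 35. Gcg of glucagon cells and Apoa1 of hepatocytes had 0 reads, Alb had 1, and Mir206 of muscle 2. Mir122 of hepatocytes, Mir1 and Mir133a1 of muscle, Mir451 of blood cells, Mir126 and Mir219a2 were not analysed here, so the muscle list rests on 1 of its 3 genes. Of the blood cell list Mir223 had 4 reads and Mir142 was at 60.5 ± 14 and 59.8 ± 16.1, and of the endothelial list Mir126a at 22 ± 9.53 and 27.5 ± 8.62, with overlapping groups for both.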

How the data were processed

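According to the labels and the study's methods, the authors made small RNA libraries (under 200 bases) with unique molecular identifiers from 3 control and 3 PWS lines. They deduplicated reads with UMI-tools, trimmed them with cutadapt, aligned them with Bowtie2 to a custom rat annotation and counted genes with HTSeq. The labels' processing notes name Rnor_6.0. The authors deposited 2 tables of 32883 genes, which add a read that fits several genes to each of them (used here) or leave it out. Both gave the same reads for every member. How the aligner placed reads that match several loci equally was not examined. Each deposited value is a signal, gene counts divided by a DESeq2 size factor. All values above 0 (100%, tolerance 0.001) were whole multiples of 1 read, so whole reads were recovered. The deposited log2 fold changes, p-values and mean signals of the authors' own comparison were not used.

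Group differences were tested with limma-trend (limma 3.58.1, R 4.3.3) on log2(normalized reads + 1), which understates the change of low genes, for all genes averaging 5 or more, with Benjamini-Hochberg adjustment and calls below an adjusted p of 0.1, as in the study. Alternatives were pseudocounts of 0.5 and 5, filters at 1 and 20 or none, scaling by TMM or the upper quartile, the quasi-likelihood test of edgeR 4.0.16 and DESeq2 1.42.0 on the recovered reads, the other table, a replicate block, lines 19-1 and 19-4 averaged and each line left out. Counting intervals are exact Poisson 95% intervals, and ratios pool the reads of a group over its summed size factors. Gene counts summed to 7373691 to 16480475 a library, where 3 reads, the limit used for a count of 0, are 1.78 to 3.96 normalized reads (the two-sided exact interval of 0 reads ends at 2.19 to 4.86).

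Members and gene lists were chosen with earlier results of these data known, and 1 planned gene was left out of the oligodendrocyte marker list. Named besides the members were the 5 miRNA genes outside the Mir344 family, with a mean of at least 100, most correlated with Mir3065 and with Mir135b, the 5 most abundant miRNAs inside a same-strand host, and, of 10 genes on each side of Aatk and Lemd1, those called or else the highest one. Mir3594, Mir135a-1, single list genes, hosts that share reads and the rows of overlapping miRNA genes were named after their values were seen. Sequences and gene order came from RefSeq (GRCr8).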

Additional observations from a re-analysis of the deposited data

How the results depend on the processing

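The count of called genes was 55 and ran from 41 to 66 over 18 alternatives (44 to 58 with 1 line left out). Mir3065 and Mir135b were lower in PWS lines under all 18 alternatives, with log2 differences of -1.18 to -0.93 and -2.28 to -1.24 that are also their ranges with 1 line left out. The value of -1.24 is without control line 2. Both genes were chosen on this contrast, so their direction under these alternatives is no further support for it. Filters and the replicate block left both values unchanged. Mir135a ranged from -0.37 (without control line 16) to 0.44 (without PWS line 19-4), negative under 3 of 18, with adjusted p of 0.893 to 1.00. Aatk ranged from -0.91 (without PWS line 3) to 0.54 (without line 19-4), negative under 11 of 15, and was also positive with DESeq2 (0.40), lines 19-1 and 19-4 averaged (0.25) and a pseudocount of 5 (0.02). It had no value under the filter at 20, edgeR or the replicate block, being below their filter, and Lemd1, without a read, had no value under any.

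The labels give both groups replicate numbers 1 to 3. Deviations from the group means of same-numbered lines correlated at 0.414, 0.218 and -0.0574 over 1087 genes. Lines of different number were not compared, so whether the numbers pair the lines was not tested. With the replicate block 56 genes were called, Mir3065 stood at -1.05, Mir135b at -1.89 and Mir135a at 0.03 (adjusted p = 0.986). Scaling moved the median of all genes by less than 0.1 (-0.0262 with the upper quartile, -0.00119 with TMM). Aatk, at 0 to 11 reads a line and Lemd1, at 0, are limited by depth.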
